A study of Mus musculus with 18 samples.

Results

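The genes examined here are 42 effectors and regulators that type I interferon is known to switch on, from the Ifit, Isg15, Oas, Mx, Gbp, immunity-related GTPase, Ifitm, Parp and Trim families. They were chosen by name, and a locus counted as a member when its list of gene symbols held the name. The choice was made with earlier results of these data known. Counts of members set beside shares of all loci are thus descriptions and do not rest on an independent list. All 42 had a locus among the 51499 loci of the authors' deposited table. The 3 members Irf9, Ifitm2 and Igtp share their locus with other genes (Rnf31 with Irf9, Gm45717 and Ifitm5 with Ifitm2, Irgm2 with Igtp), so their values cover those genes as well.

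RNA had been sequenced from mouse embryonic fibroblasts (MEFs) to ask whether the Argonaute protein AGO2 acts on mRNAs under stress of the endoplasmic reticulum (ER). The 18 libraries fall into 6 groups of 3. MEFs labelled Ago2+/+ and MEFs labelled Ago2-/- each received the solvent DMSO, tunicamycin, a drug that blocks the first step of N-linked glycosylation, or 500 nM thapsigargin, which inhibits the calcium pump of the ER. The labels name no interferon or virus among the treatments. The groups labelled Ago2+/+ carry the name DCR1 in the library titles, and neither the reason, the deleted part of Ago2 nor the number of clones behind each line is stated by the sources at hand. The deposited value is 1 FPKM (fragments scaled by transcript length and by the number of fragments mapped) per gene and group, estimated by the authors over the 3 libraries. It carries no replicate spread and no depth. The authors' own test results in the table were not used, no test could be made from 1 value per group, and differences are described by their size beside the share of all loci that differ as much.

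Type I interferons bind a receptor of IFNAR1 and IFNAR2 whose kinases JAK1 and TYK2 phosphorylate STAT proteins, STAT2 among them. These join IRF9 and enter the nucleus, where the complex binds the interferon-stimulated response element (ISRE) in the promoters of effector genes. IRF7 amplifies the response by driving more interferon, and USP18 and SOCS1 damp it. Fibroblasts make and answer interferon, and resting cultures can hold a low, tonic level of these transcripts.

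The promoters of several members carry the ISRE core, and the stretches below are those of genes whose values are described next. They come from the RefSeq promoter table (GRCm38.p6), are written 5′ to 3′ on the strand of the gene, and show in capitals matches to GAAANNGAAA. For Ifit1, Ifit3 and Ifit3b 1 of 2 upstream matches is shown. Where the match lies on the other strand the capitals read as its reverse complement, and overlapping matches form 1 longer run.
Isg15, chr4:156200857-156200914, minus strand: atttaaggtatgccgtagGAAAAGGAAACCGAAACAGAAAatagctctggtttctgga
Ifit1, chr19:34640786-34640831, plus strand: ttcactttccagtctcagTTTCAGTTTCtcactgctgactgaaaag
Ifit3, chr19:34583389-34583434, plus strand: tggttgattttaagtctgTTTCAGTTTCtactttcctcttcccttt
Ifit3b, chr19:34607785-34607830, plus strand: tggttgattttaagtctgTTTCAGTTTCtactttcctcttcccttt
Oas1a, chr5:120907526-120907563, minus strand: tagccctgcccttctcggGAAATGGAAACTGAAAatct
Oas1g, chr5:120887614-120887649, minus strand: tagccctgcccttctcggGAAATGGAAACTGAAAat
Gbp2, chr3:142620586-142620631, plus strand: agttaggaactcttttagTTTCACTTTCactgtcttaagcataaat
Gbp3, chr3:142559981-142560032, plus strand: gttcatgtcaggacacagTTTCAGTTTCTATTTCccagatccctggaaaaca
Gbp7, chr3:142530265-142530310, plus strand: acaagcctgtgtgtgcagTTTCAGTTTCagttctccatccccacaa
Irgm1, chr11:48871421-48871468, minus strand: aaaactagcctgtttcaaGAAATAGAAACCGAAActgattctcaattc
Bst2, chr8:71537569-71537620, minus strand: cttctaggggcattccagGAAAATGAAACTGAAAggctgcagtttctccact

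The run of 3 overlapping matches before Isg15 lay 56 to 78 bases upstream of the RefSeq start, and the pairs before Oas1a and Oas1g lay 4 to 20 and 2 to 18 bases upstream. The stretches before Ifit3 and Ifit3b are the same over all 46 bases shown. RefSeq windows of 250 bases before to 50 after the start were found for 33 members. The letters GAAANNGAAA, read on both strands, stood in the window of 18 of them (54.5%), beside 1079 of 27025 genes (3.99%). The gamma-activated site TTCNNNGAA, an element of the response to interferon gamma, stood in 9 of the 33 (27.3%) and in 9.55% of all genes. No window was used for Usp18, Oas1b, Oas2, Mx1, Mx2, Rtp4, Parp9, Parp14 and Tap2. A match is a description of letters and not evidence of binding.

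The labels were checked before the members were read. Under the Ago2+/+ label Ago2 stood at 22.1 FPKM with DMSO, 5.75 with tunicamycin and 17.0 with thapsigargin. Under the Ago2-/- label it stood at 5.61, 15.5 and 20.7 FPKM with the same agents. It was thus lowest in Ago2+/+ tunicamycin and Ago2-/- DMSO. The Xist locus was above 1 FPKM in Ago2+/+ DMSO and Ago2-/- thapsigargin and in no other group, and Ddx3y, Eif2s3y, Kdm5d and Uty, all Y-linked, were above 0 in Ago2+/+ thapsigargin and Ago2-/- tunicamycin and in no other group. The 6 groups therefore fall into 3 pairs across the labels. For 4 of the 18 libraries the genotype labels also conflict, and the pooled values give no way to leave them out. Each group is called by its label throughout, and genotype, treatment, sex and source of the cells cannot be told apart. Of 8 fibroblast markers, 7 reached 1 FPKM in at least 1 group and Thy1 was listed at 0 in all. Their summed level was lowest in Ago2-/- thapsigargin (1715 FPKM) and Ago2+/+ DMSO (1916 FPKM), the groups with the most members on, and ran from 3164 to 3692 FPKM in the other 4. Single markers did not all follow the sum, to which Vim gave the most in every group (952 to 2634 FPKM). Pdgfrb and Fn1 were lowest in Ago2-/- thapsigargin and Ago2+/+ DMSO. Col1a1, Col1a2 and Col3a1 were instead lowest in Ago2-/- DMSO and Ago2+/+ tunicamycin. Vim was lowest in Ago2-/- tunicamycin and Sparc in Ago2-/- thapsigargin. Col1a1 ran from 5.97 FPKM in Ago2-/- DMSO to 651 in Ago2-/- tunicamycin. It stood at 112 in Ago2+/+ DMSO and 87.1 in Ago2-/- thapsigargin. Of 8 leukocyte markers 1 reached 1 FPKM (Cd68), 4 (Adgre1, Cd3e and Siglech among them) were listed at 0 in all groups, and the summed level ran from 1.24 to 2.36 FPKM, with its highest values in Ago2-/- thapsigargin (2.36) and Ago2+/+ DMSO (1.95). Endothelial and epithelial markers summed to at most 0.465 and 1.33 FPKM. Whether the differences in fibroblast and leukocyte markers have a part in the results was not tested. In bulk RNA, fewer cells that express a gene and less of its RNA per cell cannot be told apart.

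The interferon-stimulated genes were not uniformly on or off. A gene is called on at 1 FPKM or more. In Ago2+/+ DMSO 33 of the 42 members were on, in Ago2-/- thapsigargin 26, in Ago2-/- tunicamycin 22, in Ago2+/+ thapsigargin 17, in Ago2-/- DMSO 14 and in Ago2+/+ tunicamycin 12. Over all loci the share that was on lay between 22.3% and 22.6% in the 6 groups, so the number of expressed genes as a whole was about the same. The median member stood at 3.17 FPKM in Ago2+/+ DMSO and at 2.19 in Ago2-/- thapsigargin, at 1.25 in Ago2-/- tunicamycin and 0.445 in Ago2+/+ thapsigargin, and at 0.163 in Ago2-/- DMSO and 0.126 in Ago2+/+ tunicamycin.

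Of the members, 11 were on in all 6 groups: Ifit2, Isg20, Stat2, Irf1, Irf9, Irgm1, Bst2, Ifitm2, Ifitm3, Rtp4 and Ifi35. Another 7 were on in none: Ifit3, Ifit3b, Oas2, Mx1, Cmpk2, Gbp2 and Gbp7. The remaining 24 were on in some groups and off in others. Isg15 was on in 5 groups, and Parp9, Dtx3l, Trim25, Samd9l and Tap2 in the 4 groups other than Ago2+/+ tunicamycin and Ago2-/- DMSO. Ifit1, Irf7, Igtp, Trim21 and Xaf1 were on in 3 groups, Usp18, Oasl1, Oasl2, Gbp3 and Ifitm1 in 2, and Oas1a, Oas1b, Oas1g, Oas3, Mx2, Rsad2, Parp14 and Ifi44 in 1. Some of these lay close to the limit, with Rsad2 at 1.01, Oas1g at 1.01 and Oas3 at 1.06 FPKM in Ago2+/+ DMSO. The split into on in all, some or no groups was not counted over all loci, so whether it is unusual is not known. Between their highest and lowest group, 29 of the 42 members differed at least 2-fold on the scale of log2(FPKM + 1), where the same held for 32.3% of the 11929 loci whose mean reached 1 FPKM.

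**Figure D1:**
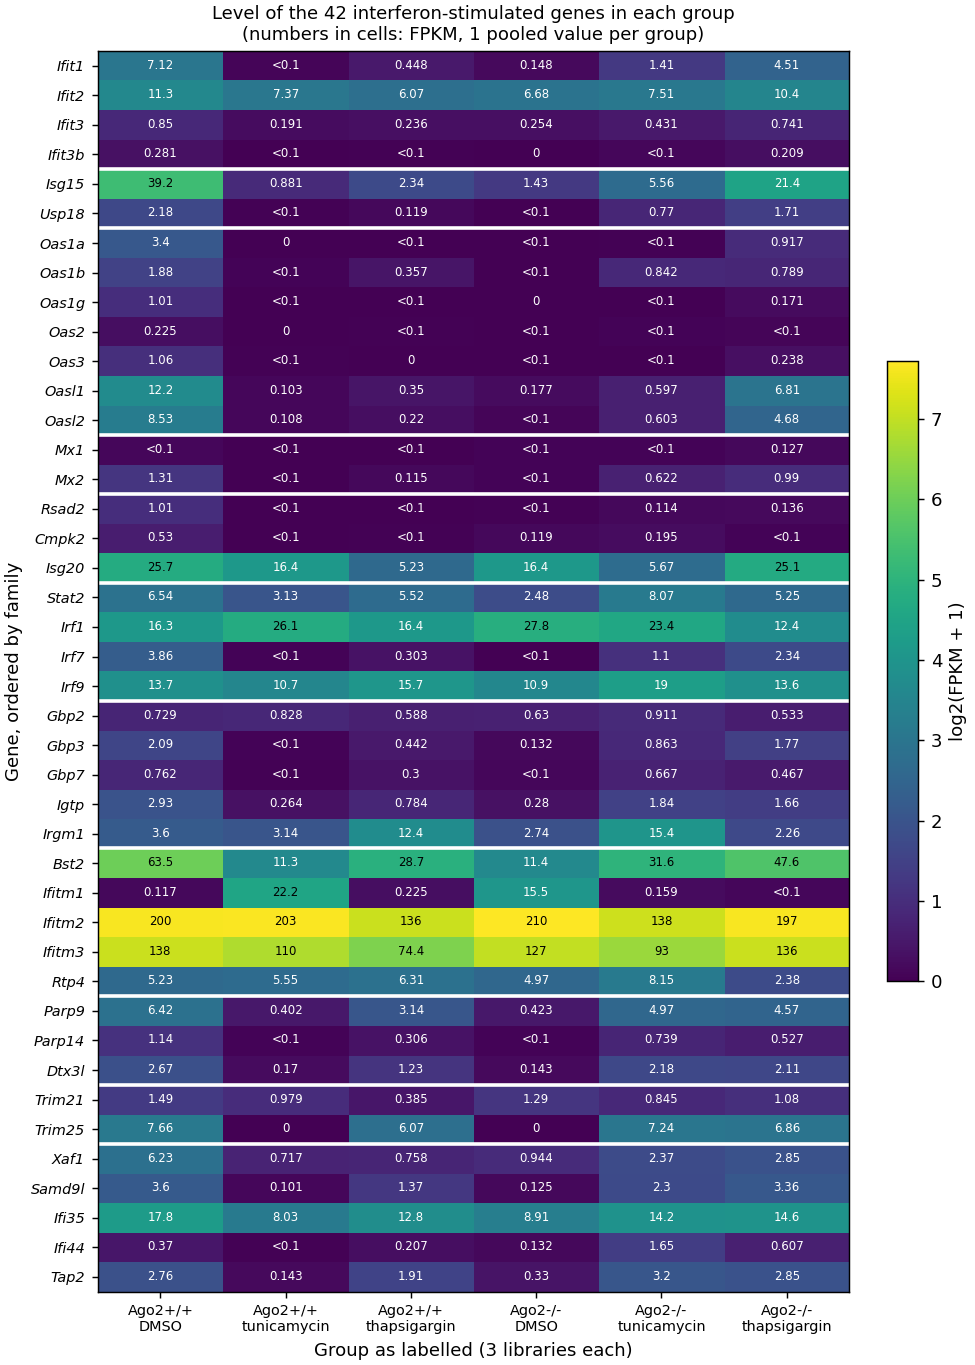
Heat map of the 42 genes (rows, ordered by family and divided by white lines) in the 6 groups as labelled (columns). Colour gives log2(FPKM + 1) and the number in each cell is the FPKM, 1 pooled value per group over 3 libraries; most rows are brightest in Ago2+/+ DMSO, where 33 genes reached 1 FPKM, and darkest in Ago2+/+ tunicamycin or Ago2-/- DMSO, where 12 and 14 did, while Ifitm1 runs the other way.

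Isg15 had the widest range of the members on this scale (4.42), just ahead of Ifitm1 (4.41). In what follows the 3 values under each genotype label are given in the order DMSO, tunicamycin, thapsigargin. Isg15 (ENSMUSG00000035692, chr4:156199424-156200818, GRCm38), a ubiquitin-like protein that is attached to other proteins, was at 39.2, 0.881 and 2.34 FPKM under the Ago2+/+ label and at 1.43, 5.56 and 21.4 FPKM under the Ago2-/- label. Usp18 (chr6:121245906-121270917), the protease that removes ISG15 and restrains the receptor, was at 2.18, 0.0377 and 0.119 FPKM and at 0.0125, 0.77 and 1.71 FPKM. Both genes were highest in Ago2+/+ DMSO, followed by Ago2-/- thapsigargin and then Ago2-/- tunicamycin. The range of Usp18 over the groups was 1.65 on the log2(FPKM + 1) scale.

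The Ifit genes, whose proteins bind foreign RNA, are encoded side by side on chromosome 19. Of them only Ifit1 spanned 2-fold on the log2(FPKM + 1) scale. Ifit3 and Ifit3b stayed under 1 FPKM and could not do so on that scale. Ifit1 (chr19:34640871-34650009), which binds RNA with an incompletely methylated cap, was at 7.12, 0.0767 and 0.448 FPKM under the Ago2+/+ label and at 0.148, 1.41 and 4.51 FPKM under the Ago2-/- label. Ifit2 (chr19:34550694-34576419) was at 11.3, 7.37 and 6.07 FPKM and at 6.68, 7.51 and 10.4 FPKM. Ifit2 was thus on in every group while its neighbour Ifit1 was under 0.5 FPKM in 3 of them, although the same pair of groups was highest for both. Ifit3 stayed between 0.191 and 0.85 FPKM, and Ifit3b between 0 in Ago2-/- DMSO and 0.281 in Ago2+/+ DMSO. The longest transcripts of Ifit3 and Ifit3b share 51.2% and 45.0% of their 50-base words with other genes, mostly each other, so fragments could have been split between them and both values are uncertain.

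The Oas genes encode enzymes that answer double-stranded RNA by making short adenosine chains, which activate RNase L. They lie in clusters on chromosome 5. Their summed level was 28.3, 0.314 and 0.977 FPKM under the Ago2+/+ label and 0.29, 2.16 and 13.7 FPKM under the Ago2-/- label. Outside Ago2+/+ DMSO, where 6 of the 7 were on, only Oasl1 and Oasl2 were on, and only in Ago2-/- thapsigargin. Oasl1 (chr5:114923240-114937915), a family member without synthetase activity, was at 12.2, 0.103 and 0.35 FPKM and at 0.177, 0.597 and 6.81 FPKM. Oasl2 (chr5:114896936-114912234) was at 8.53, 0.108 and 0.22 FPKM and at 0.0778, 0.603 and 4.68 FPKM. These neighbours followed each other closely over the 6 groups. Oas1a (chr5:120896256-120907521) reached 3.4 FPKM in Ago2+/+ DMSO and 0.917 in Ago2-/- thapsigargin, stayed at or under 0.0322 in 3 others, and had a listed value of 0 in Ago2+/+ tunicamycin. Oas1b, the flavivirus resistance gene of mice, differed from Oas1a in Ago2-/- tunicamycin, where it was at 0.842 FPKM, and in Ago2+/+ thapsigargin, where it was at 0.357. Its other values were 1.88 FPKM in Ago2+/+ DMSO, 0.789 in Ago2-/- thapsigargin, 0.0634 in Ago2+/+ tunicamycin and 0.00729 in Ago2-/- DMSO. Oas1g reached 1.01 FPKM, Oas3 1.06 and Oas2 0.225, each in Ago2+/+ DMSO, and none exceeded 0.238 elsewhere. Oas1a and Oas1g share 57.6% and 54.7% of their 50-base words with other genes, so their split is uncertain as well.

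The dynamin-like GTPases Mx1 and Mx2 (chromosome 16) differed from each other. Mx2 was at 1.31, 0.0131 and 0.115 FPKM under the Ago2+/+ label and at 0.0448, 0.622 and 0.99 FPKM under the Ago2-/- label. Mx1 stayed at or below 0.127 FPKM in all groups, too low to read an order from. Rsad2, which encodes viperin and makes a chain-terminating nucleotide, reached 1.01 FPKM in Ago2+/+ DMSO and at most 0.136 elsewhere. Cmpk2, its neighbour on chromosome 12 and a mitochondrial nucleotide kinase, reached 0.53 FPKM in the same group and at most 0.195 elsewhere. Isg20 (chr7:78913424-78920396), an RNA exonuclease, was at 25.7, 16.4 and 5.23 FPKM and at 16.4, 5.67 and 25.1 FPKM. Isg20 was therefore lowest in Ago2+/+ thapsigargin and Ago2-/- tunicamycin, groups in which Isg15 and Ifit1 held a middle place.

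**Figure D2:**
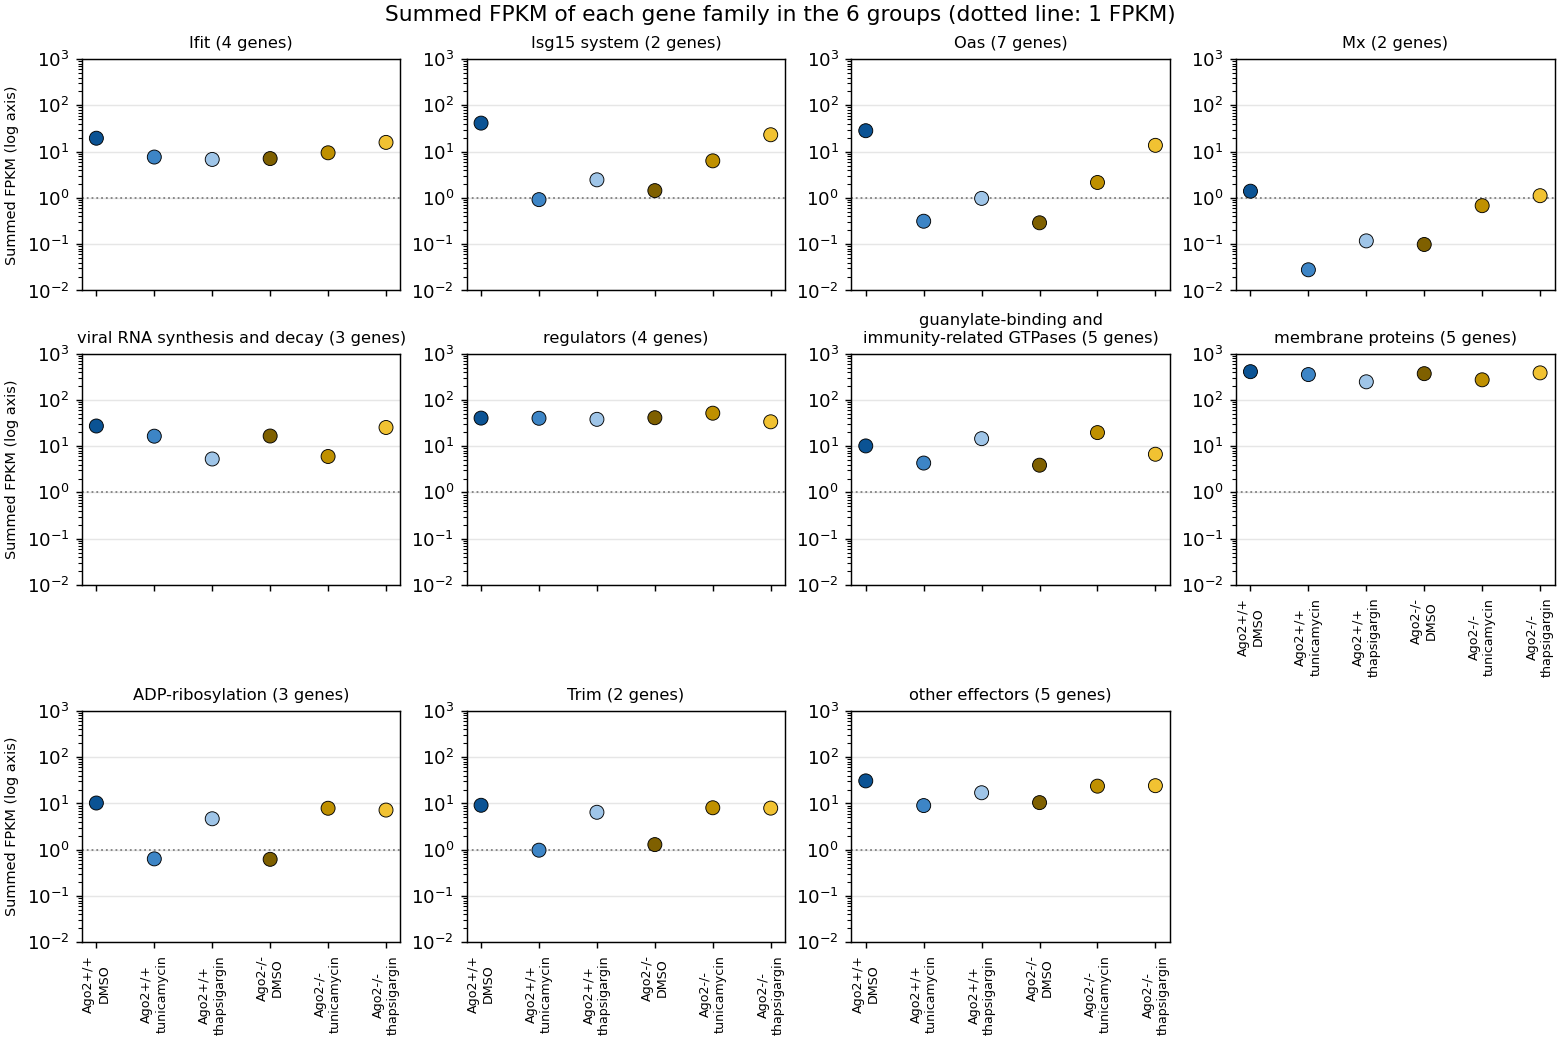
Summed FPKM of each of the 11 families (panels; logarithmic vertical axis) in the 6 groups as labelled, 1 pooled value per group with no error bar; the dotted line marks 1 FPKM. The Oas sum runs from 0.29 to 28.3 FPKM and the Isg15 system from 0.918 to 41.3, whereas the sum of the 4 regulators stays between 33.6 and 51.5 and that of the 5 membrane proteins between 246 and 407.

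Among the regulators, Irf7 was on in some groups and off in others, and Stat2, Irf9 and Irf1 were on in all 6. Irf7 (chr7:141262706-141266481) was at 3.86, 0.0575 and 0.303 FPKM under the Ago2+/+ label and at 0.0159, 1.1 and 2.34 FPKM under the Ago2-/- label. Stat2 (chr10:128270559-128292849) was at 6.54, 3.13 and 5.52 FPKM and at 2.48, 8.07 and 5.25 FPKM, so that Ago2+/+ tunicamycin and Ago2-/- DMSO were again lowest but the gene was never off. The locus of Irf9 and Rnf31 was lowest in Ago2+/+ tunicamycin (10.7 FPKM) and highest in Ago2-/- tunicamycin (19.0 FPKM). Irf1 (chr11:53770014-53778374), an activator that answers interferon gamma and other stimuli, was at 16.3, 26.1 and 16.4 FPKM and at 27.8, 23.4 and 12.4 FPKM. For Irf1 the order was turned over, with Ago2-/- DMSO and Ago2+/+ tunicamycin highest.

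The guanylate-binding proteins Gbp2, Gbp3 and Gbp7, GTPases that attack the vacuoles of intracellular pathogens, lie within 1 cluster on chromosome 3 and differed from each other. Gbp3 (chr3:142560026-142573209) was at 2.09, 0.0533 and 0.442 FPKM under the Ago2+/+ label and at 0.132, 0.863 and 1.77 FPKM under the Ago2-/- label. Gbp7 (chr3:142530342-142550149) was at 0.762, 0.0293 and 0.3 FPKM and at 0.0935, 0.667 and 0.467 FPKM. Gbp2 (chr3:142620602-142638008) stayed between 0.533 and 0.911 FPKM in all groups. Gbp3 and Gbp7 were thus at most 0.132 FPKM in Ago2+/+ tunicamycin and Ago2-/- DMSO, where Gbp2 was at 0.828 and 0.63 FPKM, and the ISRE letters stood in the windows of all 3. Of the immunity-related GTPases, the locus of Igtp and Irgm2 (chromosome 11) was at 2.93, 0.264 and 0.784 FPKM and at 0.28, 1.84 and 1.66 FPKM. Irgm1 (chr11:48861968-48871683), which regulates the other members of its family, was at 3.6, 3.14 and 12.4 FPKM and at 2.74, 15.4 and 2.26 FPKM. Irgm1 was highest in Ago2-/- tunicamycin and Ago2+/+ thapsigargin, the groups with Y-linked transcripts. It stood at 3.6 FPKM or less in every other group, whereas the Igtp locus was highest in Ago2+/+ DMSO.

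The most abundant members were the membrane proteins Ifitm2, Ifitm3 and Bst2. Bst2 (chr8:71534255-71537456), or tetherin, which holds budding virions at the cell surface, was at 63.5, 11.3 and 28.7 FPKM under the Ago2+/+ label and at 11.4, 31.6 and 47.6 FPKM under the Ago2-/- label. Its order of groups was that of Ifit1 and Isg15. The Ifitm proteins, which hinder the fusion of viruses with endosomes, lie together on chromosome 7 and split into 2 kinds. Ifitm3 (chr7:141009586-141010770) was at 138, 110 and 74.4 FPKM and at 127, 93.0 and 136 FPKM, and the locus of Ifitm2 ran from 136 to 210 FPKM. Ifitm1 (chr7:140967221-140969825) was at 0.117, 22.2 and 0.225 FPKM and at 15.5, 0.159 and 0.0926 FPKM. Ifitm1 was on in exactly the groups in which Trim25 was listed at 0 and Parp9, Dtx3l, Samd9l and Tap2 were off. Of the words of Ifitm2, 48.5% are shared with other genes, mostly Gm45717. Rtp4 (chromosome 16), which encodes a receptor transporter protein, ran from 2.38 FPKM in Ago2-/- thapsigargin to 8.15 in Ago2-/- tunicamycin.

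PARP9 and DTX3L form a complex that modifies ubiquitin, and their genes overlap head to head on chromosome 16, near Parp14. Parp9 (chr16:35938470-35972605) was at 6.42, 0.402 and 3.14 FPKM under the Ago2+/+ label and at 0.423, 4.97 and 4.57 FPKM under the Ago2-/- label. Dtx3l (chr16:35926511-35939151) was at 2.67, 0.17 and 1.23 FPKM and at 0.143, 2.18 and 2.11 FPKM. Parp14 was at 1.14, 0.0633 and 0.306 FPKM and at 0.0549, 0.739 and 0.527 FPKM. All 3 were lowest in Ago2+/+ tunicamycin and Ago2-/- DMSO and highest in Ago2+/+ DMSO. Parp9 and Dtx3l overlap on opposite strands, and without a stated strand setting fragments from the overlap cannot be told apart. Trim25 (chr11:88999376-89020293), a ubiquitin ligase of the RIG-I pathway, was at 7.66 and 6.07 FPKM in Ago2+/+ DMSO and thapsigargin and at 7.24 and 6.86 FPKM in Ago2-/- tunicamycin and thapsigargin, and it had a listed value of 0 in both Ago2+/+ tunicamycin and Ago2-/- DMSO. Only 1 other locus of the table, Fam198a, was listed at 0 in exactly these groups with at least 5 FPKM in each other group. In all, 229 loci were listed at 0 in 1 group or more and at 5 FPKM or more in another, 224 of them outside the Y chromosome, so an exact 0 here need not mean absence of transcript and no fold is given for Trim25. Trim21, the cytosolic antibody receptor, stayed between 0.385 and 1.49 FPKM.

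Of the other effectors, Xaf1 (chr11:72301629-72313733), which promotes apoptosis, was at 6.23, 0.717 and 0.758 FPKM under the Ago2+/+ label and at 0.944, 2.37 and 2.85 FPKM under the Ago2-/- label. Samd9l (chr6:3372257-3399572), a growth-restraining antiviral factor, was at 3.6, 0.101 and 1.37 FPKM and at 0.125, 2.3 and 3.36 FPKM. Tap2 (chr17:34203527-34216321), a subunit of the transporter that feeds peptides to MHC class I, was at 2.76, 0.143 and 1.91 FPKM and at 0.33, 3.2 and 2.85 FPKM. Samd9l and Tap2 were lowest in Ago2+/+ tunicamycin and Ago2-/- DMSO, whereas Xaf1 was under 1 FPKM in Ago2+/+ thapsigargin as well. Ifi35 was on throughout, between 8.03 FPKM in Ago2+/+ tunicamycin and 17.8 in Ago2+/+ DMSO. Ifi44 was highest in Ago2-/- tunicamycin (1.65 FPKM), where the other groups lay between 0.0263 and 0.607.

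Across the list, Ago2+/+ DMSO was the highest of the 6 groups for 31 of 42 members, beside 15.8% of loci, and Ago2+/+ tunicamycin the lowest for 21, beside 15.3% of loci (Trim25, at 0 in 2 groups, is counted here). Ago2+/+ DMSO and Ago2-/- thapsigargin were together the 2 highest groups for 23 members (17.7% of loci), and Ago2+/+ tunicamycin and Ago2-/- DMSO together the 2 lowest for 25 (26.4% of loci). Both held for 14 members, Ifit1, Ifit3b, Isg15, Usp18, Oas1a, Oas2, Oasl1, Oasl2, Mx2, Irf7, Gbp3, Bst2, Samd9l and Ifi35, and for 7.39% of loci. Ago2+/+ thapsigargin and Ago2-/- tunicamycin were the 2 highest groups for 3 members, Irf9, Irgm1 and Rtp4 (26.0% of loci), and the 2 lowest for 5, Oas3, Isg20, Ifitm2, Ifitm3 and Trim21 (23.9% of loci). All loci behind these shares average 1 FPKM or more over the groups, but only 25 of the 42 members do. The member counts thus include orders read from values far under 1 FPKM. Mx1 (at most 0.127 FPKM), Oas2 (0.225) and Ifit3b (0.281) are among the 23, and such orders are uncertain.

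Under the labels as given, the stressors were compared with DMSO first. A member is counted when its log2(FPKM + 1) differed by at least 1, that is 2-fold. This scale understates the change of low genes. Under tunicamycin in the groups labelled Ago2+/+, 20 of 42 members were at least 2-fold lower and 1 (Ifitm1) higher, where 6.32% of 11929 loci were lower and 7.7% higher. The median member differed by -1.0 and the median locus by 0.0054. Isg15 differed by -4.42, Oasl1 by -3.58, Oasl2 by -3.10 and Ifit1 by -2.92, and Ifitm1 by 4.37. Bst2 differed by -2.39, Parp9 by -2.40 and Irf7 by -2.20. Under thapsigargin in the same label 15 members were lower and 1 (Irgm1, by 1.54) higher, where 5.46% of loci were lower and 7.44% higher, and the median member differed by -0.82. Isg15 differed by -3.59, Oasl1 by -3.29 and Isg20 by -2.10. Both comparisons share the Ago2+/+ DMSO group.

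In the groups labelled Ago2-/- the directions were mostly the opposite. Under tunicamycin 13 members were higher and 2 (Isg20 and Ifitm1) lower, where 9.5% of loci were higher and 8.36% lower, with a median of 0.62. Parp9 differed by 2.07, Irgm1 by 2.13, Tap2 by 1.66, Isg15 by 1.43 and Stat2 by 1.38. Ifitm1 differed by -3.83. Under thapsigargin 14 members were higher and 2 (Irf1 and Ifitm1) lower, where 6.31% of loci were higher and 7.99% lower, with a median of 0.58. Isg15 differed by 3.21, Oasl1 by 2.73, Oasl2 by 2.40, Ifit1 by 2.26 and Irf1 by -1.11. The comparisons share the Ago2-/- DMSO group, in which 14 of the 42 members were on, whereas the reference of the other label was the group with the most members on.

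Some members were at least 2-fold lower under a stressor in the groups labelled Ago2+/+ and at least 2-fold higher in those labelled Ago2-/-. For tunicamycin these were 10, Ifit1, Isg15, Irf7, Igtp, Bst2, Parp9, Dtx3l, Trim25, Samd9l and Tap2, where the same held for 2.95% of loci. The reverse held for Ifitm1 alone and for 3.86% of loci. For thapsigargin they were 9, Ifit1, Isg15, Usp18, Oasl1, Oasl2, Irf7, Gbp3, Igtp and Bst2, where the same held for 2.03% of loci, and the reverse held for 0 members and 2.66% of loci. With 1 value per group these differences between the labels were not tested. Ago2+/+ tunicamycin, a treated group, and Ago2-/- DMSO, a reference, form a pair across the labels, as do Ago2-/- thapsigargin and Ago2+/+ DMSO.

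Next the genotype labels were compared within each treatment. Under DMSO 22 members were at least 2-fold lower in Ago2-/- than in Ago2+/+ and 1 (Ifitm1) higher, where 6.38% of loci were lower and 7.99% higher, and the median member differed by -1.02. Isg15 differed by -4.05 and Oasl1 by -3.49. Under tunicamycin the balance was turned, with 12 members higher and 2 (Isg20 and Ifitm1) lower, where 9.39% of loci were higher and 7.92% lower, and a median of 0.69. Parp9 differed by 2.09 and Irgm1 by 1.98. Under thapsigargin 8 members were higher and 2 (Irgm1 and Rtp4) lower, where 5.58% of loci were higher and 8.19% lower, and a median of 0.42. Isg15 differed by 2.75, Isg20 by 2.07 and Irgm1 by -2.04.

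**Figure D3:**
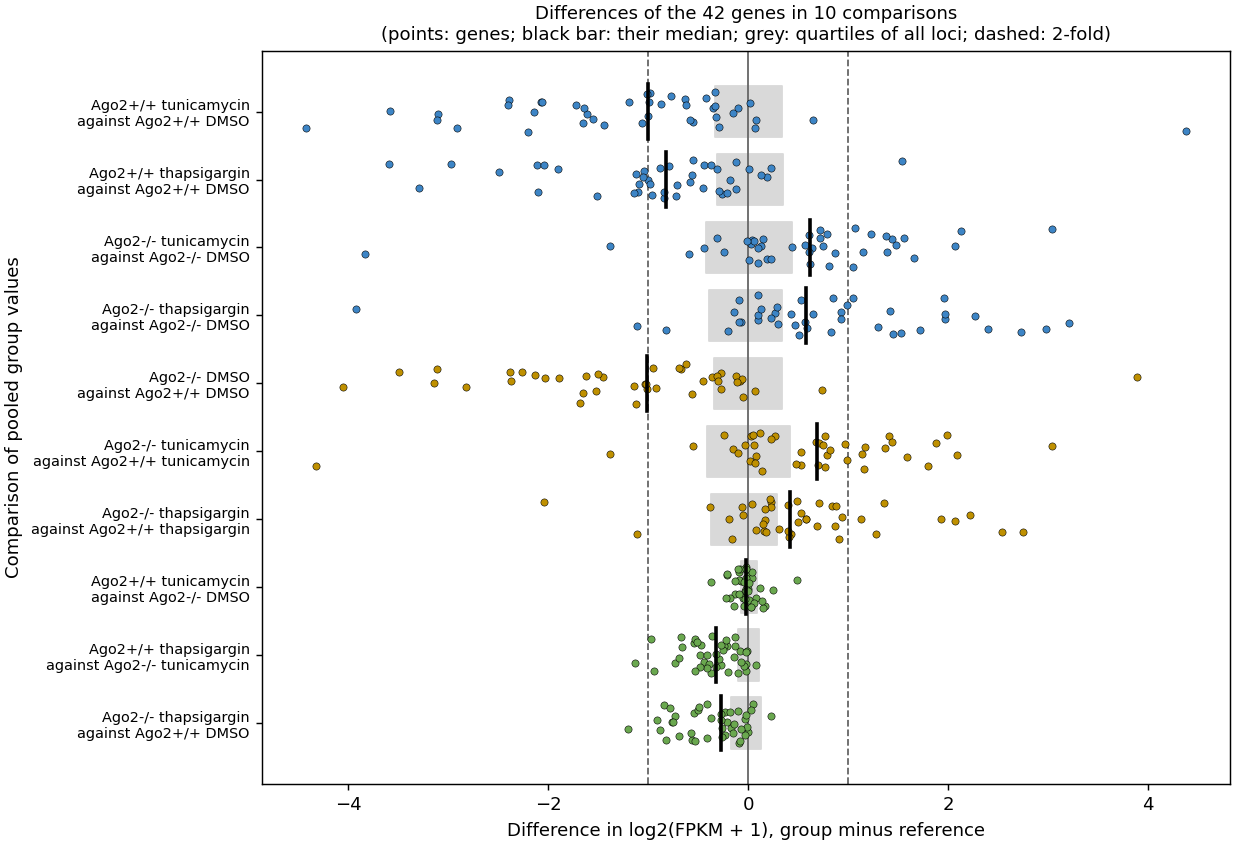
Difference in log2(FPKM + 1) of each of the 42 genes (points) in 10 comparisons of pooled group values (rows; blue, stressor against DMSO; brown, Ago2-/- against Ago2+/+ label; green, pairs of groups alike in Ago2 and sex-linked transcripts), with the median of the genes as a black bar, the quartiles of 11929 loci in grey and 2-fold as dashed lines. The medians lie at -1.0 and -0.82 under the stressors in Ago2+/+, at 0.62 and 0.58 in Ago2-/-, and between -0.32 and -0.02 in the 3 green rows.

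Because Ago2 and the sex-linked genes join the groups into pairs across the labels, the members were also compared within those pairs. Between Ago2+/+ tunicamycin and Ago2-/- DMSO 0 members differed 2-fold in either direction, where 0.469% of loci were higher and 0.57% lower. The median difference was -0.02, and 26 members were lower in Ago2+/+ tunicamycin by any amount, where 48.7% of loci were. Isg15 differed by -0.37 and Ifitm1 by 0.49, the widest in this pair. Between Ago2+/+ thapsigargin and Ago2-/- tunicamycin 1 member, Ifi44, was 2-fold lower (-1.14) and 0 were higher, where 0.511% of loci were lower and 0.486% higher. Here 41 of 42 members were lower in Ago2+/+ thapsigargin by any amount, where 48.7% of loci were, and the median was -0.32, below the lower quartile of loci of -0.10. Isg15 differed by -0.97, Xaf1 by -0.94, Ifit1 by -0.73 and Irf7 by -0.69, and Ifitm1 was the exception with 0.08. Between Ago2-/- thapsigargin and Ago2+/+ DMSO 1 member, Oas1a, was 2-fold lower (-1.20) and 0 were higher, where 0.931% of loci were lower and 0.939% higher. In this pair 39 of 42 members were lower in Ago2-/- thapsigargin, where 53.2% of loci were, and the median was -0.27 beside a lower quartile of loci of -0.17. Isg15 differed by -0.84, Oasl1 by -0.76, Oasl2 by -0.75 and Rtp4 by -0.88, and Ifi44, Mx1 and Tap2 were higher, by 0.23, 0.05 and 0.03. In 2 of the 3 pairs nearly all members thus leaned the same way. The size of these differences depends on the pseudocount. With 0.1 FPKM in place of 1 FPKM, 12 members were 2-fold lower in Ago2+/+ thapsigargin than in Ago2-/- tunicamycin (median -0.64) and 8 in Ago2-/- thapsigargin than in Ago2+/+ DMSO (median -0.41). The lean was not tested, and members are not independent of each other.

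The rest of the pathway was read from a list of 60 further loci that hold no member. It covers machinery upstream of the members and also other interferon-stimulated genes, which lie downstream as the members do. Of the 6 interferon genes listed, Ifna2, Ifng, Ifnl2 and Ifnl3 were listed at 0 in all groups, and Ifnb1, the interferon of fibroblasts, reached 0.0865 FPKM in Ago2+/+ DMSO and 0.0303 in Ago2-/- thapsigargin, with 0 in the other 4. These values are far under 1 FPKM and their error is unknown. The receptor genes were on in every group. Ifnar1 was at 24.1, 22.2 and 30.3 FPKM under the Ago2+/+ label and at 22.1, 35.0 and 19.1 FPKM under the Ago2-/- label, and the locus of Ifnar2 was at 36.0, 29.9 and 49.4 FPKM and at 31.8, 55.7 and 30.3 FPKM. Ifngr1, of the receptor for interferon gamma, was at 16.3, 13.2 and 39.4 FPKM and at 12.8, 41.8 and 13.1 FPKM. All of these receptor genes were highest in Ago2+/+ thapsigargin and Ago2-/- tunicamycin, as was Irgm1 and as was not Isg15. Among the kinases Jak1 ran from 37.8 to 59.4 FPKM, Jak2 from 7.94 to 14.0 and Tyk2 from 4.4 to 6.21. Stat3 ran from 20.2 to 28.0 FPKM.

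Other parts of the pathway differed among themselves. Irf3 ran from 24.3 to 36.2 FPKM, whereas Irf5 was at 8.74 and 8.16 FPKM in Ago2+/+ thapsigargin and Ago2-/- tunicamycin and at most 1.95 elsewhere. Of the inhibitors, Socs1 ran from 3.05 FPKM in Ago2+/+ thapsigargin to 8.58 in Ago2-/- thapsigargin and Ptpn2 from 39.7 to 47.3. Among 10 sensors of nucleic acids, Mb21d1, which encodes the DNA sensor cGAS, stayed between 7.27 and 9.03 FPKM, and its partner Tmem173, which encodes STING, was at 26.6, 0.686 and 6.92 FPKM and at 0.543, 8.84 and 18.5 FPKM. Tmem173 had the same order of groups as Irf7 among the members. Of 29 other interferon-stimulated genes, counted with Irgm2, which shares the locus and values of the member Igtp, 17 were on in at least 1 group, 12 had a range of at least 2-fold, and the median range was 0.75. The locus of Ifi203 and Mndal had the widest range, with 13.0, 14.0 and 0.169 FPKM and 32.5, 0.179 and 8.99 FPKM, and Slfn5 was at most at 0.00968 FPKM.

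**Figure D4:**
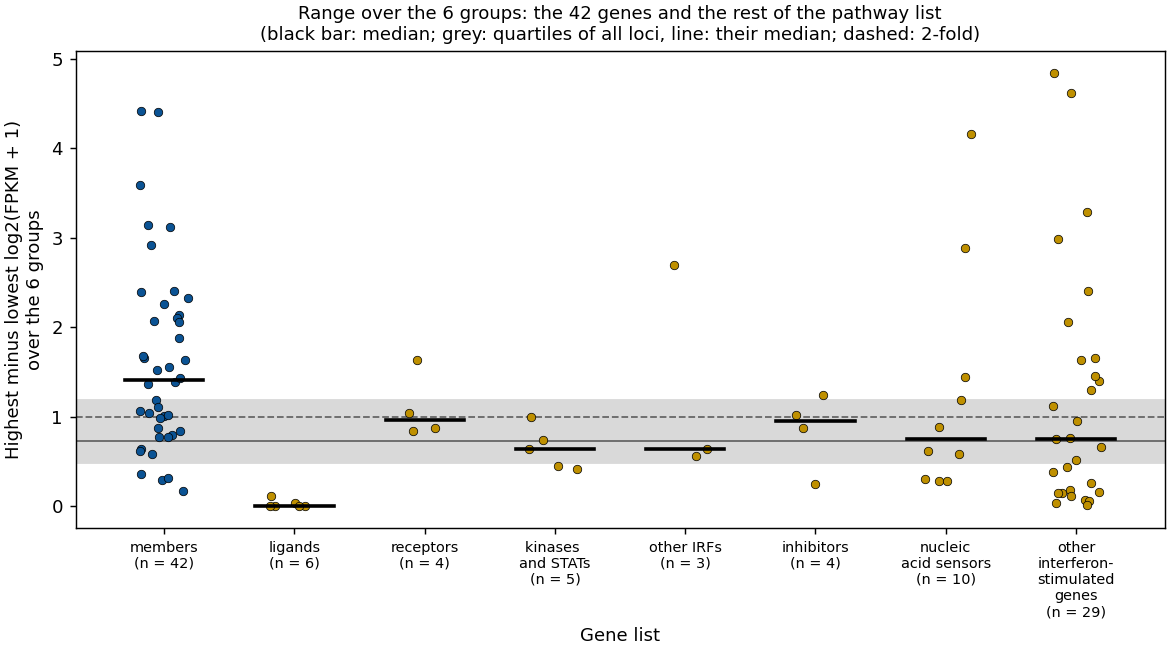
Range of each gene over the 6 groups, as its highest minus its lowest log2(FPKM + 1), for the 42 members and 7 further lists of the pathway (points are genes, black bars medians; grey band and line, quartiles and median of 11929 loci; dashed line, 2-fold). The median member spans 1.41 against 0.73 for the median locus, the receptors 0.96, the kinases and STATs 0.64, and the 6 interferon genes lie at or near 0.

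Irgm2 was left out of the following counts. Over the 60 loci as a whole, 8 were at least 2-fold lower and 0 higher under tunicamycin in the groups labelled Ago2+/+, where 6.32% and 7.7% of all loci were. Under thapsigargin 8 were lower and 3 higher, where 5.46% and 7.44% were. In the groups labelled Ago2-/-, 10 were higher and 2 lower under tunicamycin, where 9.5% and 8.36% were. Under thapsigargin 7 were higher and 4 lower, where 6.31% and 7.99% were. The medians of these comparisons lay between -0.12 and 0.12, beside -1.0 to 0.62 for the members. Only 0 of 6 interferon genes, 9 of 10 sensors and 17 of 29 other interferon-stimulated genes, counted with Irgm2, reached 1 FPKM in a group. A locus that stays under 1 FPKM cannot differ 2-fold on this scale and draws the median towards no difference. The shares of all loci come from loci whose mean reached 1 FPKM, so the rest of the pathway cannot be called flat from these counts. Within the pairs of like groups, 1 of the 60 was 2-fold lower in Ago2+/+ tunicamycin than in Ago2-/- DMSO, where 0.57% of all loci were lower and 0.469% higher. In the other pairs 0 differed. There 0.511% of all loci were lower and 0.486% higher (Ago2+/+ thapsigargin against Ago2-/- tunicamycin), and 0.931% lower and 0.939% higher (Ago2-/- thapsigargin against Ago2+/+ DMSO). Counts this small are near those shares.

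The promoter letters were also set beside the range of the members on the log2(FPKM + 1) scale. Of the 18 members with GAAANNGAAA in their window, 10 ranged at least 2-fold over the groups, with a median of 1.03. Of the 15 with a window and no match, among them Oasl1, Oasl2, Irf7 and Samd9l, 12 did, with a median of 2.06. Of the 9 with no window 7 did, with a median of 1.44. Of the 11929 loci whose mean reached 1 FPKM, 32.3% did. A gene that stays under 1 FPKM cannot range 2-fold on this scale. That was so for Ifit3, Ifit3b, Gbp2 and Gbp7 among those with a match. It was so for Cmpk2 among those without, and for Oas2 and Mx1 among those with no window. These sets thus differ in level as well, and a link between letters and range was not tested. Isg15 with 3 overlapping matches had the widest range of all members, whereas Gbp2 with 1 hardly ranged. Irgm1 with 2 was highest in Ago2-/- tunicamycin and Ago2+/+ thapsigargin, as were Irf9 and Rtp4. The window covers only the bases next to 1 start, and of the 39 windows of members, some of which have several starts, 29 matched a transcript start of the annotation.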

How the data were processed

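The deposited file is 1 table in the layout of Cuffdiff, with 772485 rows for 51499 loci and 15 pairs of groups. The submitters' processing notes name FastQC 0.11.7, HISAT2 2.1.0, StringTie 1.3.4d and Cuffdiff 2.2.1, and the study's methods name Ensembl release 91. Neither library scaling nor strandedness is given in the sources used here. Each deposited FPKM, 1 value for a locus and group, was made by the authors over 3 libraries. The table also holds the authors' log2 fold change, test statistic, p-value, q-value and significance flag for each pair, which were not used. The number of per-sample columns left unmapped was 0. Some genes of the lists are not reported here.

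Groups were read from the library titles. Other genotype labels conflict with the title for replicate 2 of each Ago2+/+ group (3 libraries) and for replicate 3 of Ago2-/- DMSO. Differences were taken on log2(FPKM + 1), counted at 1 or more in size (2-fold), and set beside the 11929 loci whose mean reached 1 FPKM. No test was made, since no group has more than 1 value. In each group 26.7% to 41.4% of the low values came within 0.1 of whole multiples of a best-fitting step. Without steps the share would be 20% for a step fixed in advance, and higher for the best of many. Reads were not recovered, and depth is unknown. Gene positions are those of GENCODE release M21 (GRCm38), matched by gene ID and symbol, and promoters those of RefSeq (GRCm38.p6).

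All 42 members may be named, and of the pathway list the receptors, kinases and STATs and the gene with the widest and the narrowest range in each subgroup. The members and lists were chosen with earlier results of these data known. Alternatives were pseudocounts of 0.1 and 5 FPKM, members with a mean of at least 1 FPKM, upper-quartile scaling, members alone in their locus, and limits of 0.5 and 5 FPKM for a gene that is on. The counting was checked on simulated data with changes planted only in well-expressed loci. The check thus does not cover members near or under 1 FPKM. Python 3.11.15, numpy 2.4.6, pandas 2.3.3 and matplotlib 3.10.9 were used.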

Additional observations from a re-analysis of the deposited data

Results flagged for a closer look

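Members whose difference under a stressor ran one way in the groups labelled Ago2+/+ and the other way in those labelled Ago2-/-, by at least 2-fold in each, were singled out. Under tunicamycin 10 members were lower in Ago2+/+ and higher in Ago2-/-, Ifit1, Isg15, Irf7, Igtp, Bst2, Parp9, Dtx3l, Trim25, Samd9l and Tap2, beside 2.95% of loci, and Trim25 is among them through values listed at 0. Only 1 member, Ifitm1, was higher in Ago2+/+ and lower in Ago2-/- under tunicamycin, by 4.37 and -3.83, beside 3.86% of loci. Under thapsigargin 9 members were lower in Ago2+/+ and higher in Ago2-/-, Ifit1, Isg15, Usp18, Oasl1, Oasl2, Irf7, Gbp3, Igtp and Bst2, beside 2.03% of loci. The difference between the labels was not tested, as each group has 1 pooled value, and both DMSO groups serve as reference for both stressors. Ago2+/+ tunicamycin, a treated group, and Ago2-/- DMSO, a reference, differed 2-fold in 0 of 42 members (0.469% of loci higher, 0.57% lower). Ago2 stood at 5.75 and 5.61 FPKM there and at 15.5 in Ago2-/- tunicamycin. Ago2-/- thapsigargin and Ago2+/+ DMSO differed in 1 member (0.939% higher, 0.931% lower). Genotype, treatment, sex and source of the cells cannot be told apart.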

How the results depend on the processing

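In each labelled comparison the majority among the members that differed at least 2-fold kept its direction under every alternative. Members that did not differ 2-fold are not part of that majority. Upper-quartile scaling or keeping only members alone in their locus moved no count by over 1.5 times. The size of the counts depended on the pseudocount. With 5 FPKM, members lower under tunicamycin and thapsigargin in Ago2+/+ numbered 7 and 6, those higher in Ago2-/- 3 and 4 (1 lower under thapsigargin), those lower in Ago2-/- under DMSO 7, those higher in Ago2-/- under tunicamycin and thapsigargin 3 and 3 (1 lower under thapsigargin), and those lower in the last pairs of like groups 0 and 0. The share of higher members then fell from 86.7% to 60% for tunicamycin in Ago2-/- and from 85.7% to 60% between the labels under tunicamycin. With 0.1 FPKM, 27 members were lower under thapsigargin in Ago2+/+, 22 and 26 higher under tunicamycin and thapsigargin in Ago2-/-, 23 and 20 higher in Ago2-/- between the labels under these drugs, 12 lower in Ago2+/+ thapsigargin than in Ago2-/- tunicamycin, and 8 lower in Ago2-/- thapsigargin than in Ago2+/+ DMSO. The share of higher members between the labels under thapsigargin then went from 80.0% to 90.9%. Among the 25 members with a mean of at least 1 FPKM, 9 were lower under thapsigargin in Ago2+/+, 14 lower in Ago2-/- under DMSO, and 0 in either of the last pairs. With a limit of 5 FPKM, 17, 10 and 12 members were on under the Ago2+/+ label with DMSO, tunicamycin and thapsigargin, and 9, 13 and 12 under the Ago2-/- label, so that Ago2-/- DMSO had the fewest and Ago2-/- thapsigargin was level with Ago2+/+ thapsigargin.

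No paired analysis was possible because the table holds 1 pooled value per group, and leaving out a replicate was not possible for the same reason. Values under 1 FPKM have an unknown error, and 6 members were listed at 0 in at least 1 group.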
